A study of Mus musculus with 9 samples.

Results

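The clock output transcription factors described here are Dbp, Tef, Hlf, Nfil3, Ciart, Bhlhe40 and Bhlhe41, 7 of the 40879 gene symbols in the deposited tables. They were chosen by symbol as a gene family, at a time when values of Dbp in SNI and SNI+LDN193189 libraries had already been seen, so SNI+LDN193189 against SNI is described and not tested. All 7 symbols were found, 6 passed the filter on low counts, and Ciart was listed at 0 in every library.

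RNA of spinal cord from male mice was sequenced as 9 libraries, 3 each labelled sham, SNI and SNI+LDN193189, and no strain or age was used here. SNI commonly abbreviates spared nerve injury, a model of neuropathic pain made by cutting branches of the sciatic nerve while sparing another. LDN193189 is a small molecule that inhibits the kinases of BMP type I receptors. The series title concerns ACVR1, one of those receptors, glycolysis, histone lactylation and pyroptosis in neuropathic pain. The labels did not give the side or segment sampled, how long after injury tissue was taken, the dose, route or vehicle of the compound, or the hour of the day. They call the replicates separate biosamples without saying that they came from separate animals, so the spread behind the p-values may be technical. The protocol text speaks of cell lines although the source is spinal cord.

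In the circadian clock, Bmal1 and Clock (or Npas2) drive genes through E-boxes, and their products Per and Cry shut that drive down, while the nuclear receptors Nr1d1 and Nr1d2 repress Bmal1. Dbp, Tef and Hlf are the PAR bZIP proteins, which carry the rhythm outward by activating genes through D-boxes. Nfil3 occupies the same D-boxes and represses, and Bhlhe40, Bhlhe41 and Ciart oppose the E-box activators. Peripheral tissues including the nervous system run this loop, and its levels depend on the hour of the day. The labels did not give that hour, so its part in differences between groups or libraries could not be tested.

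To show where the E-box lies, promoter windows of RefSeq (GRCm38.p6, 250 bases before to 50 after a start) were searched for CACGTG, which reads the same on both strands. Windows existed for 6 members, Tef having a window for each of its starts, which made 7 windows. The E-box was present in 4 of them, both of Tef and those of Ciart and Bhlhe41, and in 7.15% of all 32851 windows. Each stretch is given 5′ to 3′ on the strand of the gene, with the E-box in capitals.

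Tef, upstream start: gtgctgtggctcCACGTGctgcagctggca
Tef, downstream start: cacctggcccagCACGTGtctacatcgttt
Ciart, match 1: tgcatctagagtCACGTGttgccggtaagc
Ciart, match 2: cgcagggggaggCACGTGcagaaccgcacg
Ciart, match 3: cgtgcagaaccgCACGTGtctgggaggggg
Bhlhe41: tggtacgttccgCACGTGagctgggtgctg

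In GRCm38.p6 the Tef stretches lie at chr15:81802534-81802563 and chr15:81811264-81811293 on the plus strand. Those of Ciart lie at chr3:95882327-95882356, chr3:95882269-95882298 and chr3:95882255-95882284 on the minus strand, and the latter pair share bases. The stretch of Bhlhe41 lies at chr6:145865556-145865585 on the minus strand. No window held the E-box variant CACGTT (4.68% of all windows, both strands) or a D-box spelled TTATGTAA or TTACGTAA (1.06%, both strands). The nuclear receptor motif AGGTCA was in 1 window, that of Nfil3 (16.3% of all windows, both strands). A match is a run of letters in a window and says nothing about binding in these samples, and Bhlhe40 is named here without a sequence.

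Library totals ran from 33432776 to 37190467 counts, and levels are given as CPM, counts relative to the library total after scaling by TMM, a normalization across libraries. The columns carry the letters S, N and L, read as sham, SNI and SNI+LDN193189 from the names alone. If S and N were exchanged, every SNI and sham value here would belong to the other group, and the sign of their difference would flip. In bulk tissue fewer cells of a type and less RNA per cell cannot be told apart.

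Marker lists of neighbouring tissue differed between libraries, and their part in the results was not tested. The summed level of 10 Schwann cell and nerve root genes was 933 to 6418 CPM in sham, 344 to 957 in SNI and 842 to 2005 in SNI+LDN193189. For 12 meningeal fibroblast genes the sums were 177 to 882, 127 to 220 and 164 to 269 CPM, and none of either list was at 0 throughout. The 9 skeletal muscle genes summed to 724 CPM in sham replicate 1 and to 3.62 to 16.3 in the other libraries. The 8 sensory ganglion genes summed to 55.9 CPM in sham replicate 2 and to 8.17 to 14.3 elsewhere. Lists for the cord's own cells were more even, from 6313 to 7561 CPM for neurons, 5492 to 6645 for astrocytes and 24017 to 28055 for oligodendrocytes. In SNI+LDN193189 against sham the 8 oligodendrocyte genes were all higher (median log2 fold change 0.16), with 0 called by edgeR, DESeq2 or limma. The groups did not overlap in 4 of them, as in 13.1% of all genes tested. An unadjusted p under 0.05 was found in 5 of them, and in 1561 of all 18245 genes tested in this comparison. The 7 endothelial genes summed to 338 to 384 CPM in sham, 320 to 363 in SNI and 330 to 343 in SNI+LDN193189. Of the endothelial genes 6 were lower in SNI+LDN193189 against sham (median -0.22), with 5 at an unadjusted p under 0.05, 0 called by edgeR or limma, and Cldn5 and Kdr called by DESeq2. Hoxd10, a gene of lumbar cord, stood at 6.85 CPM in SNI+LDN193189 replicate 3 and at 31.7 to 57.9 in the other libraries, while the summed level of the 7 genes of cord position was 343 to 416 CPM, Hoxa10 being listed at 0.

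Relative to its own level, Dbp had the widest range of the measured members, taken as the ratio of the highest to the lowest library. It stood at 14.5, 14.5 and 24.3 CPM in sham replicates 1, 2 and 3, at 20.7, 23.3 and 41.5 in SNI, and at 40.5, 47.5 and 36.3 in SNI+LDN193189. The lowest SNI+LDN193189 library was above every sham library, and sham and SNI overlapped through sham replicate 3. SNI replicate 3 was level with the treated libraries, well above the other SNI libraries. Sham replicate 3 also held the highest nerve root sum of its group (6418 CPM), as SNI replicate 3 did of its own (957 CPM). In SNI+LDN193189 that sum was highest in replicate 1 (2005 CPM) and Dbp in replicate 2 (973 CPM for the sum), and sham replicates 1 and 2 had 933 and 2306 CPM with equal Dbp. Dbp lies at chr7:45705100-45710203 and shares 741 bases with Sphk2, whose counts were 592 to 786. Against sham, the fitted log2 fold change was 0.68 (SE 0.339) in SNI and 1.22 (SE 0.339) in SNI+LDN193189, with adjusted p = 0.941 and 0.515 (edgeR's quasi-likelihood test with Benjamini-Hochberg adjustment over 18245 genes). Neither passed the threshold of 0.05. Without SNI replicate 3 the log2 difference of SNI from sham was 0.31, and without sham replicate 3 it was 0.98.

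Tef was the most abundant member. Its level was 199, 200 and 189 CPM in sham, 197, 218 and 247 in SNI, and 241, 262 and 270 in SNI+LDN193189. The treated libraries were above all sham libraries, and the SNI libraries spread from the sham level into the treated range. The log2 fold change against sham was 0.17 (SE 0.0726) in SNI and 0.40 (SE 0.0726) in SNI+LDN193189, with adjusted p = 0.927 and 0.162 by the same edgeR test. DESeq2 gave the latter an adjusted p = 0.00075. Tef lies at chr15:81802673-81826863, with no other annotated gene over it.

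Hlf stood at 77.0, 79.5 and 84.5 CPM in sham, 87.9, 86.8 and 106 in SNI, and 91.3, 107 and 108 in SNI+LDN193189. Each SNI and each treated library exceeded each sham library, by little in SNI replicates 1 and 2. The log2 fold change against sham was 0.22 (SE 0.0853) in SNI and 0.35 (SE 0.0852) in SNI+LDN193189, with adjusted p = 0.927 and 0.333 in edgeR. Hlf lies at chr11:90336535-90390917.

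Nfil3, the repressor at D-boxes, ran the other way. Its level was 10.7, 8.68 and 8.18 CPM in sham, 8.75, 9.36 and 6.53 in SNI, and 6.84, 6.33 and 6.07 in SNI+LDN193189. All treated libraries lay below all sham libraries, and SNI replicate 3 again lay among the treated libraries. These levels rest on 212 to 398 counts, the fewest of the measured members. All 9 counts of Nfil3, and all 9 of Hlf, were even. Whether the reads of a pair were counted separately was not tested, and the fragments behind these counts may then be fewer than the counts. The log2 fold change against sham was -0.16 (SE 0.155) in SNI and -0.52 (SE 0.157) in SNI+LDN193189, with adjusted p = 0.962 and 0.425 in edgeR. Nfil3 lies at chr13:52967209-52982878.

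**Figure D1:**
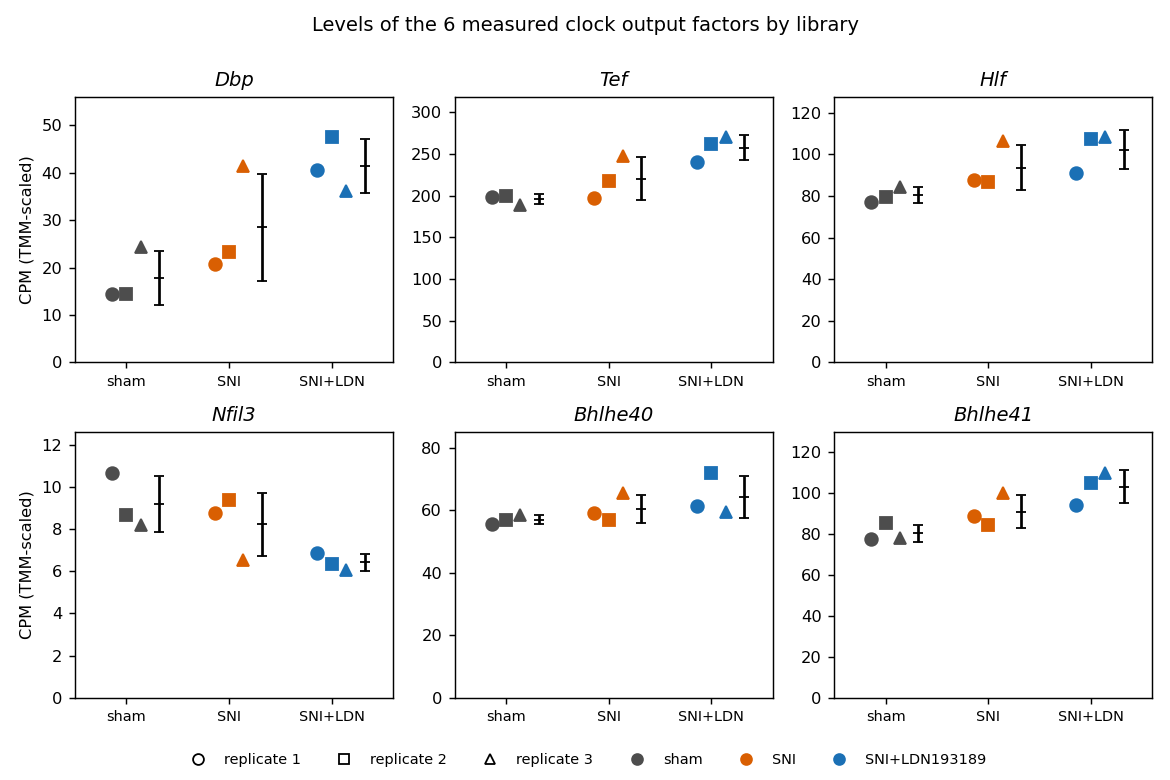
CPM of the 6 measured members in each of the 9 libraries (axes start at 0). Marker shape gives the replicate, colour the group, and the bar beside each group its mean ± SD (n = 3). Dbp is at 14.5 to 24.3 CPM in sham and 36.3 to 47.5 in SNI+LDN193189, Nfil3 is lower in SNI+LDN193189 than in sham, and SNI replicate 3 is the highest SNI library in each panel but that of Nfil3, where it is the lowest.

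Bhlhe40, a repressor at E-boxes also known as Dec1, stood at 55.6, 56.8 and 58.5 CPM in sham, 59.1, 56.8 and 65.4 in SNI, and 61.3, 72.0 and 59.4 in SNI+LDN193189. The treated libraries were above sham by a small margin, set by SNI+LDN193189 replicate 3 and sham replicate 3. In FPKM, which the authors scaled by library total alone, these neighbours were 19.0 and 19.2 and the groups overlapped. The log2 fold change against sham was 0.09 (SE 0.0748) in SNI and 0.17 (SE 0.0748) in SNI+LDN193189, with adjusted p = 0.957 and 0.565 in edgeR. The latter difference was 0.08 without SNI+LDN193189 replicate 2. Bhlhe40 lies at chr6:108660629-108666925 and shares 306 bases with the lncRNA gene 0610040F04Rik, whose counts were 268 to 381.

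Bhlhe41, its paralog (Dec2), was at 77.4, 85.2 and 78.2 CPM in sham, 88.8, 84.3 and 99.8 in SNI, and 94.3, 105 and 110 in SNI+LDN193189. The treated libraries lay above sham, and SNI overlapped both groups. The log2 fold change against sham was 0.18 (SE 0.0723) in SNI and 0.36 (SE 0.0722) in SNI+LDN193189, with adjusted p = 0.927 and 0.162 in edgeR, and DESeq2 gave the latter 0.00553. Bhlhe41, at chr6:145858243-145865420, is also known as a gene of microglia. The 9 microglia markers, P2ry12 among them at 0, summed to 230 to 268 CPM in sham, 273 to 304 in SNI and 293 to 316 in SNI+LDN193189. The 8 tested were all higher in SNI+LDN193189 against sham, 7 at an unadjusted p under 0.05, as were 1561 of all 18245 genes tested. EdgeR and limma called 0 of the 8 and DESeq2 called C1qb. The part of these markers in the Bhlhe41 values was not tested.

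Ciart, which binds the Bmal1 and Clock pair and represses it, was listed at 0 counts in all 9 libraries. It lies at chr3:95878500-95882257, wholly inside the lncRNA gene C920021L13Rik, which had 101 to 152 counts. Of the protein-coding genes placed wholly inside another gene by RefSeq, 835 of 865 were listed at 0 in every library. This held for 203 of 7645 with a partial overlap, as Dbp and Bhlhe40 have, and for 1887 of 11764 without an overlap. The entry of 0 for Ciart therefore gives no level, and no fold change was computed.

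Scaled by gene length, the members ranked as Tef, Bhlhe40, Hlf, Bhlhe41, Dbp and Nfil3. Their mean levels over the 9 libraries were 32.2, 19.5, 15.4, 14.9, 10.7 and 1.78 FPKM. Tef was above Bhlhe40, Bhlhe40 above Hlf, and Dbp above Nfil3 in all 9 libraries. Hlf exceeded Bhlhe41 in 7 libraries, and the ranges of these neighbours, 13.01 to 18.02 and 12.8 to 17.9 FPKM, nearly coincided. Bhlhe41 exceeded Dbp in 8 libraries. The exception was SNI+LDN193189 replicate 2, where Dbp was 17.2 FPKM and Bhlhe41 16.9. Dbp went from 5.21 FPKM in sham replicate 2 to 17.2 there.

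**Figure D2:**
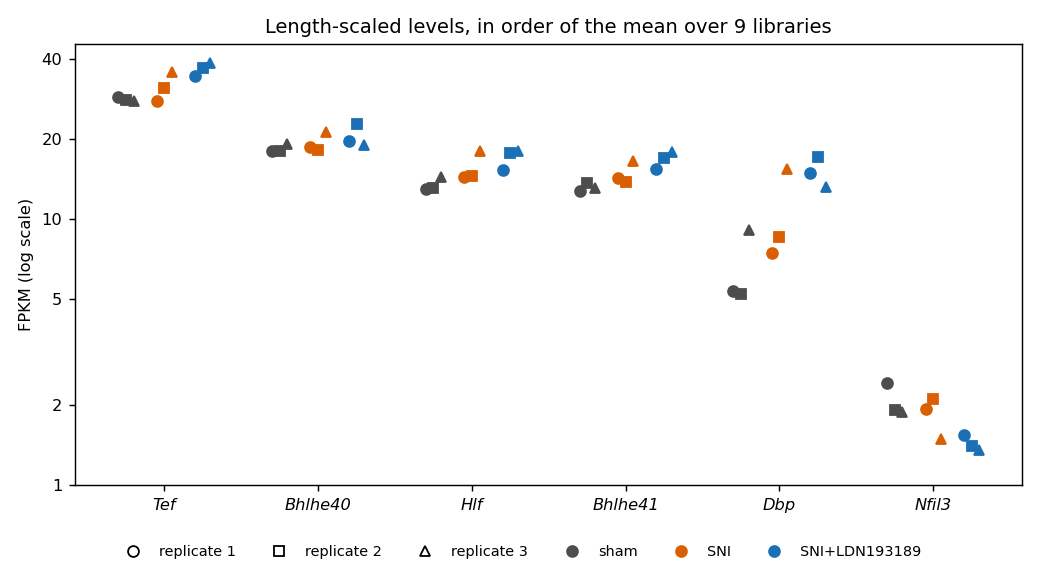
FPKM of the 6 measured members on a log axis, ordered by the mean over 9 libraries, with each point a library coloured by group. Tef (27.7 to 38.6 FPKM) lies above and Nfil3 (1.36 to 2.42 FPKM) below the others, and Dbp spans the most, from 5.21 to 17.2 FPKM.

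In SNI against sham, the 6 measured members were called 0 times by edgeR, where 0.0% of the 18245 genes tested were called. Tef, Hlf and Bhlhe41 had an unadjusted p under 0.05, as did 972 genes in all, and DESeq2 (0.121% of genes called) and limma on log2(FPKM + 0.1) (0.0%) called none of the 6. Without SNI replicate 3 the log2 difference from sham was 0.31 for Dbp, 0.08 for Tef, 0.12 for Hlf, -0.02 for Nfil3, 0.03 for Bhlhe40 and 0.11 for Bhlhe41. That of Nfil3 was -0.04 without sham replicate 1 and -0.27 without SNI replicate 2. The median log2 fold change of the members was 0.18, beside 0.00 over all genes tested. Hlf was the 1 member whose groups did not overlap, against a background of 8.87% of genes. Values of Dbp in the SNI libraries had been seen, so SNI against sham is not independent of the choice of members.

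In SNI+LDN193189 against sham, again 0 of 6 members were called by edgeR, which called 0.0164% of genes. All 6 had an unadjusted p under 0.05, as did 1561 genes in all. DESeq2 called Tef, Hlf and Bhlhe41 higher, with adjusted p = 0.00075, 0.0326 and 0.00553, and not Dbp (0.0642), where it called 0.475% of the 15375 genes it gave an adjusted p. Limma called none of the 6, and 0.00548% of all genes. The groups did not overlap for all 6, 5 higher and Nfil3 lower, where 13.1% of genes had groups that did not overlap. The median log2 fold change was 0.36, beside -0.01 over all genes. This comparison uses the treated libraries whose Dbp values had been seen, so it is not independent of the choice of members.

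In SNI+LDN193189 against SNI, the log2 differences were 0.54 for Dbp, 0.22 for Tef, 0.13 for Hlf, -0.36 for Nfil3, 0.09 for Bhlhe40 and 0.18 for Bhlhe41. These are a description of the contrast in which Dbp had been seen, and edgeR called 0.00548% of genes in it, DESeq2 0.033% and limma 0.0%. In 0 of the 6 members were the groups free of overlap, against 11.3% of genes. SNI replicate 3 lay within the treated range in each of the 6 members, so leaving it out favours separation and is no test. Without it the groups were free of overlap in all 6, against 26.4% of genes. Without SNI+LDN193189 replicate 1 this held for 4 (21.3% of genes). Leaving out any other SNI or SNI+LDN193189 library gave 0 (19.3 to 21.6% of genes). The difference of Dbp was 0.91 without SNI replicate 3 and 0.36 without SNI replicate 1. With single libraries left out, that of Tef was 0.15 without SNI replicate 1, that of Hlf ran from 0.08 (without SNI replicate 2) to 0.23 (without SNI replicate 3), and that of Bhlhe40 from -0.00 (without SNI+LDN193189 replicate 2) to 0.15 (without SNI replicate 3). The median difference of the members was 0.15, beside -0.00 over all genes. The comparisons share their libraries, so their values stand side by side and are not independent.

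**Figure D3:**
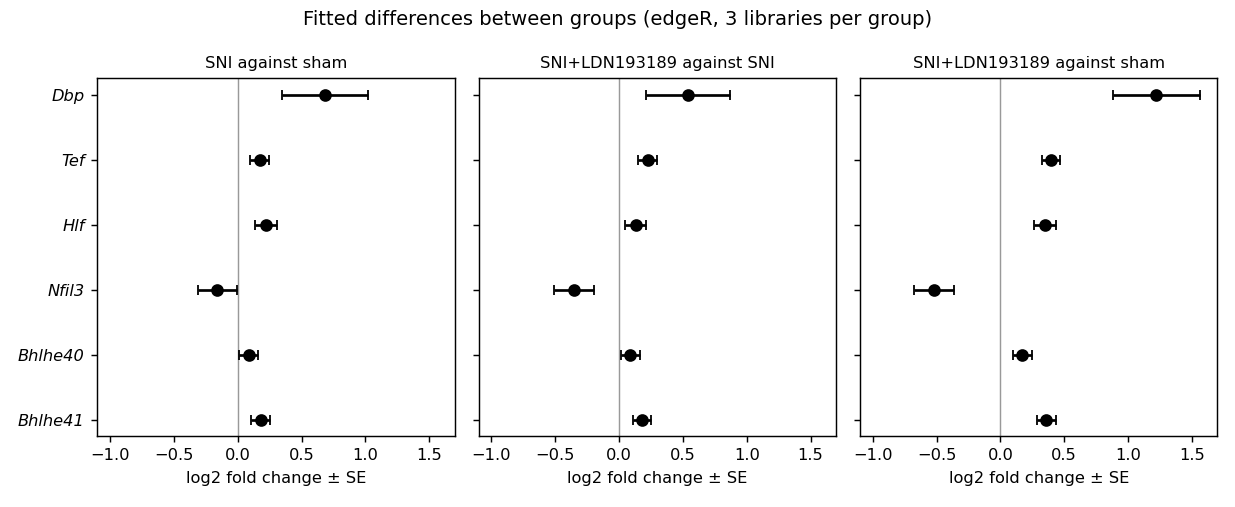
Fitted log2 fold changes ± SE of the 6 measured members in the 3 comparisons (edgeR, 3 libraries per group, the grey line is no difference). Dbp is at 0.68, 0.54 and 1.22 from left to right with the longest bars, and Nfil3 is the member left of the line, at -0.16, -0.36 and -0.52.

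Over the 9 libraries the members varied together, as a description of points that share group, library and scaling. Across the 10 pairs without Nfil3, Pearson's r of log2 CPM was 0.67 to 0.94 (Spearman's rho 0.63 to 0.95). The 5 pairs with Nfil3 had r of -0.91 to -0.74 (rho -0.88 to -0.75). The lowest of the positive values was that of Tef with Bhlhe40 and the highest that of Hlf with Bhlhe41. After the mean of each group was subtracted, r was 0.31 to 0.83 in the 10 pairs and -0.86 to -0.55 in the 5. Single libraries departed from this: SNI+LDN193189 replicate 3 had the least Nfil3 of its group and also the least Dbp and Bhlhe40, and sham replicate 3 the least Nfil3 and the least Tef of its group.

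The core clock loop list held 13 genes in the tables. In SNI+LDN193189 against sham 9 were higher and 4 lower, and edgeR called 2. The groups did not overlap for 6 higher and 3 lower genes, where 13.1% of all genes tested did not overlap. In SNI+LDN193189 against SNI 9 were higher and 4 lower, with 3 higher and 2 lower free of overlap (11.3% of all genes). There edgeR and limma called 0, and DESeq2 called Per1 (adjusted p = 0.0351) and Per2 (0.00068). Bmal1, the E-box activator, was lower in SNI+LDN193189, at 15.9, 14.6 and 15.4 CPM, than in sham, at 29.1, 28.5 and 24.1. Its log2 fold change against sham was -0.83 (SE 0.121, adjusted p = 0.0374 in edgeR), with SNI between at 24.1, 20.96 and 16.6 CPM. Per2, an E-box target that represses the loop, was higher in SNI+LDN193189, at 26.8, 28.1 and 31.9 CPM, than in sham, at 18.6, 15.6 and 17.1. Its log2 fold change against sham was 0.76 (SE 0.112, adjusted p = 0.0374 in edgeR), with SNI at 17.1, 16.2 and 21.5 CPM. Both of these edgeR calls against sham were lost in limma on log2(FPKM + 0.1), with adjusted p = 0.426 for Bmal1 and 0.324 for Per2. In edgeR each was also lost without any 1 of the treated libraries or without sham replicate 2 (Bmal1 0.0774, Per2 0.0772). Their levels had been seen when the members were proposed, and the part of the hour of the day in them could not be tested.

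The other loop genes did not pass in edgeR. Npas2, the partner of Bmal1 that can replace Clock, was at 15.0, 15.1 and 11.4 CPM in sham, 12.7, 12.4 and 9.00 in SNI and 8.76, 7.86 and 7.82 in SNI+LDN193189. Its log2 difference from sham in the treated group was -0.76 (adjusted p = 0.162), and that of Clock was -0.19 (0.511), both by edgeR. Nr1d2, a repressor of Bmal1, was at 164, 161 and 180 CPM in sham, 171, 172 and 218 in SNI and 209, 215 and 214 in SNI+LDN193189, a log2 difference of 0.34 from sham (adjusted p = 0.353 in edgeR). SNI replicate 3 thus stood close to the treated libraries in Npas2 and Nr1d2 as well. In Npas2 it was above each of them, so the SNI and treated groups did not overlap, as in 11.3% of genes. In Nr1d2 it was also above each treated library. Nr1d1, the paralog of Nr1d2, was at 35.6 CPM in SNI+LDN193189 replicate 3 and 55.4 and 53.4 in the other treated libraries. This group thus overlapped sham (35.1 to 46.6). In SNI+LDN193189 against sham, DESeq2 called Bmal1, Npas2, Per1, Per2 and Nr1d2.

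**Figure D4:**
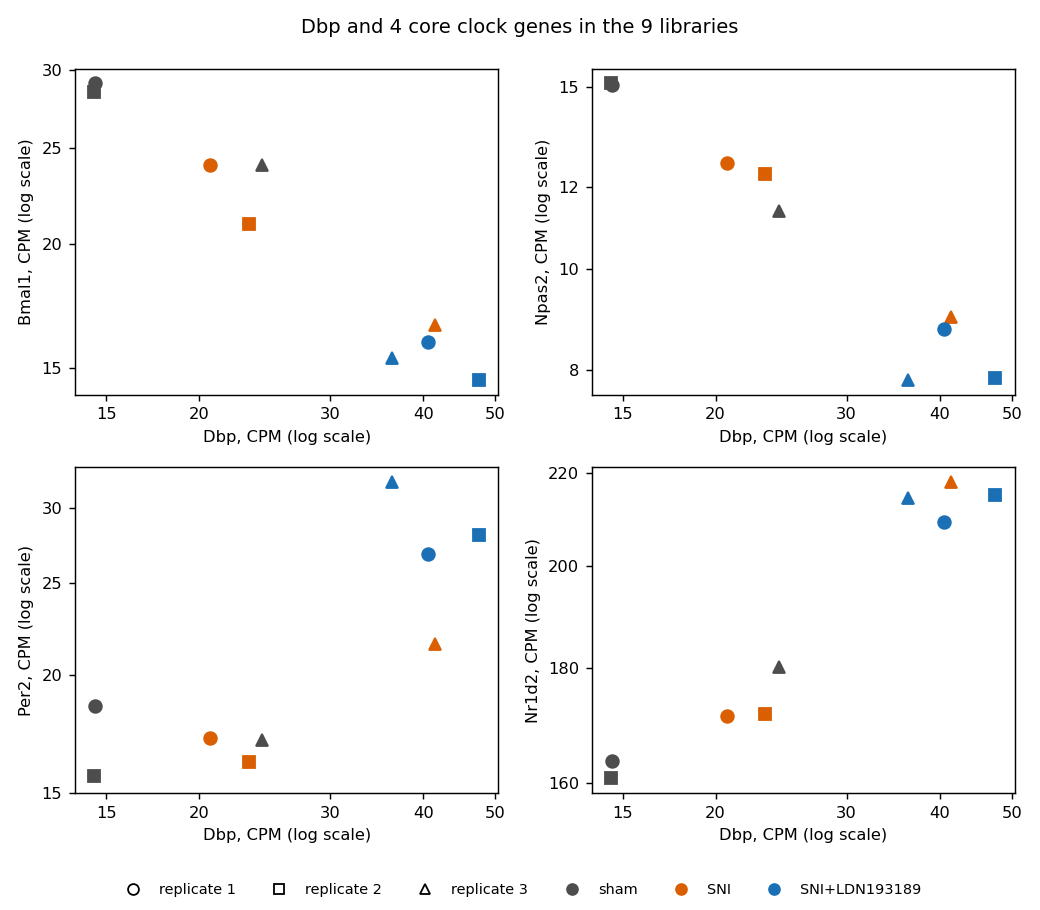
Dbp against Bmal1, Npas2, Per2 and Nr1d2 in the 9 libraries, in CPM on log axes, coloured by group with marker shape for the replicate. Bmal1 and Npas2 are lower and Nr1d2 is higher where Dbp is higher, and SNI replicate 3 (Dbp 41.5 CPM) lies beside the treated libraries for Bmal1, Npas2 and Nr1d2 and below them for Per2 (21.5 against 26.8 to 31.9 CPM).

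By the sign of r over the 9 libraries, members followed Bmal1, Clock and Npas2 in the opposite sense to the Per, Cry and Nr1d repressors, some of them weakly. Over the 9 libraries Dbp had r of -0.98 with Bmal1, -0.97 with Npas2, -0.93 with Clock, 0.97 with Nr1d2, 0.91 with Per3 and 0.80 with Per2. With the group means removed these were -0.95, -0.93, -0.89, 0.92, 0.82 and 0.47. Nfil3 had 0.90 with Bmal1, 0.94 with Npas2 and -0.95 with Per1 (0.80, 0.86 and -0.95 with the group means removed). Nr1d1 had 0.73 with Dbp and 0.69 with Bhlhe40 (0.75 and 0.62 with the group means removed). Its values were weaker with the other members, 0.36 with Tef, 0.45 with Hlf, 0.28 with Bhlhe41 and -0.47 with Nfil3. With the group means removed these weaker values were -0.01, 0.13, -0.23 and -0.32. Cry1 had 0.53 with Dbp, 0.75 with Tef and -0.65 with Nfil3 (0.22, 0.75 and -0.33 with the group means removed). Rora, a nuclear receptor that activates Bmal1, had r between -0.09 and 0.23 with the 6 members.

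**Figure D5:**
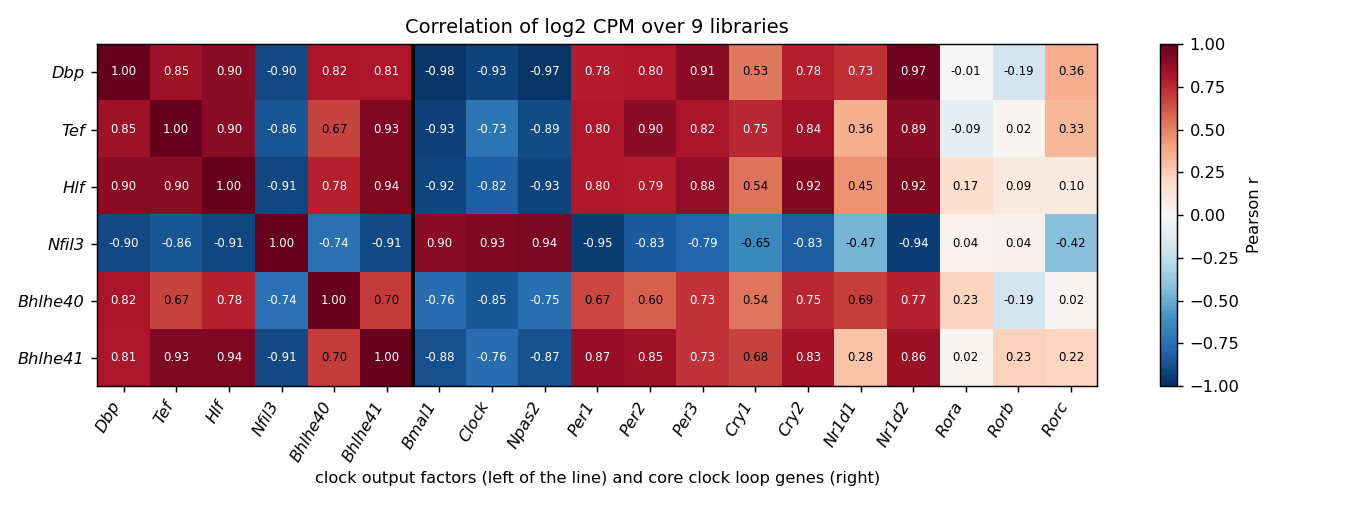
Pearson r of log2 CPM over 9 libraries between each measured member (rows) and the members and core clock loop genes (columns), in red for positive and blue for negative. The row of Nfil3 has the opposite sign to the other rows for Bmal1 (0.90), Clock (0.93), Npas2 (0.94), Per1 (-0.95), Per2 (-0.83) and Nr1d2 (-0.94), and Rora lies near 0 in all rows.

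Likeness was ranked among 11684 genes with a mean of at least 5 CPM, leaving out the members and symbols that start with Gm or end in Rik. Among these, the patterns most like that of Dbp over 9 libraries were those of Nr1d2 (r 0.97), Tlcd1 (0.95), Dctn6 (0.95), Mak16 (0.94) and Chchd10 (0.93). The most opposite were Ptpn3 (-0.99), Bmal1 (-0.98) and Npas2 (-0.97). Ptpn3, a tyrosine phosphatase, went from 41.0 CPM in sham replicate 2 to 34.8 in SNI+LDN193189 replicate 2, a far narrower range than that of Dbp. Nearest to Nfil3 were Adcy8 (0.98), Atp2c1 (0.97) and Epha5 (0.97), and nearest to Bhlhe40 were Smim19 (0.97), Bid (0.96) and Asb8 (0.96). The 9 points share group, library and scaling, and these values are a description.

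Clock-controlled output genes, a list of 18 that act downstream of D-boxes, E-boxes or the clock more widely, were 13 higher and 5 lower in SNI+LDN193189 against sham, with a median of 0.23. EdgeR called 0, 7 had an unadjusted p under 0.05, DESeq2 called Por, Tsc22d3 and Dtx4, and limma called 0. Por, the electron donor of cytochromes P450 and a PAR bZIP target in liver, was at 45.0, 48.8 and 55.1 CPM in sham, 52.7, 53.3 and 52.2 in SNI and 60.3, 61.7 and 70.2 in SNI+LDN193189 (log2 difference from sham 0.37, adjusted p = 0.189 in edgeR). Usp2, a deubiquitinase with rhythmic expression, was at 11.9, 10.4 and 8.91, then 9.39, 10.4 and 12.6, then 13.2, 13.1 and 15.9 CPM (0.44, adjusted p = 0.463 in edgeR). In both genes the treated libraries lay above all others. Pdxk, the kinase that makes pyridoxal phosphate and a PAR bZIP target in brain, had means of 150, 150 and 156 CPM in sham, SNI and SNI+LDN193189 (SD 5.84, 9.48 and 8.18). Wee1, a cell cycle kinase with E-boxes, had means of 35.5, 34.6 and 37.6 CPM, and Tspan4 19.2, 20.4 and 21.8.

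Glucocorticoids induce some clock genes, so that list of 15 was set beside the members. The list shares Fkbp5, Tsc22d3, Sgk1 and Cdkn1a with the output genes, and Per1 with the core clock loop list. It therefore does not stand apart from those lists. It was 15 higher and 0 lower in SNI+LDN193189 against SNI and 13 higher and 2 lower against sham. EdgeR and limma called 0 in each, and DESeq2 called Tsc22d3 and Per1 in each. An unadjusted p under 0.05 was found in 8 and 4 of the list, and in 708 and 1561 of all genes tested. Its summed level was 776 to 1117 CPM in sham, 782 to 910 in SNI and 1048 to 1635 in SNI+LDN193189, the highest being replicate 3. Fkbp5 was at 32.8, 38.7 and 50.2 CPM in treated replicates 1, 2 and 3 and Tsc22d3 at 186, 194 and 225. Tef, Hlf and Bhlhe41 had the same order of the treated libraries as Fkbp5, and Nfil3 the reverse order, while Dbp and Bhlhe40 had their lowest treated value in replicate 3. The part of this list in the members' values was not tested.

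Immediate early genes, 13 in number, were 3 higher and 10 lower in SNI+LDN193189 against sham, with 0 called by edgeR (1 at an unadjusted p under 0.05, and 0 by DESeq2 and limma). Fos had means of 15.1, 13.6 and 14.9 CPM in sham, SNI and SNI+LDN193189, Egr1 36.1, 29.9 and 34.7, and Nr4a1 15.2, 11.5 and 11.7. Other bZIP factors of the C/EBP and D-box kind, 7 in number, were 4 higher and 3 lower, with 0 called by any of the 3 tools and Cebpa alone at an unadjusted p under 0.05.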

How the data were processed

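The authors deposited whole-number read counts per gene symbol, with 1 column per library, and FPKM values for the same symbols. Per the labels, RNA was poly(A)-selected and libraries marked strand. The submitters' processing notes name mm10, while for the aligner, counter and annotation the names are not given in the sources used here. FPKM as deposited equalled count over library total over a fixed length for 26285 of 26285 genes with a count (relative tolerance 1e-09). Between 70.7 and 71.8% of counts above 0 were even, for which no reason was given.

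Counts were tested with edgeR 4.0.16 (R 4.3.3): filterByExpr, TMM (factors 0.984 to 1.02), a robust quasi-likelihood fit of 9 libraries with 6 residual degrees of freedom, and Benjamini-Hochberg adjustment over 18245 genes, called under 0.05. On simulated counts of 17962 genes the fit recovered 77.0% of planted log2 changes of 1 for SNI+LDN193189 against SNI and 77.5% for SNI+LDN193189 against sham. Of the calls, 3.75% and 7.19% were false. Every fitted member difference but the 1.22 of Dbp in SNI+LDN193189 against sham was smaller than 1. Recovery at those smaller sizes was not tested. Correlations used log2 CPM with a prior count of 2. Alternatives were DESeq2 1.42.0, limma 3.58.1 on log2(FPKM + 0.1), RLE scaling, no filter, 2 groups per fit, a replicate block and leaving out each library. The labels tied the replicate numbers to nothing shared, so they were not taken as pairs in the main fit. Python 3.11.15, numpy 2.4.6, pandas 2.3.3 and matplotlib 3.10.9 made tables and figures. Coordinates are RefSeq's for GRCm38.p6, which holds 37562 of the symbols.

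Members, lists and the rule for named genes were chosen with earlier results of these data known. The rule named the members, 9 core clock genes, 5 output genes, 2 glucocorticoid genes, 3 immediate early genes, and the genes most like Dbp, Nfil3 and Bhlhe40. Genes outside it (markers, Rora, Cebpa, Dtx4, Cldn5, Kdr, C1qb and genes overlapping members) were named after their values were seen.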

Additional observations from a re-analysis of the deposited data

How the results depend on the processing

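Of 270 recomputed fold changes of the members, 263 kept their direction and side of the threshold and 6 passed it, all in SNI+LDN193189 against sham: Tef and Bhlhe41 without the filter (adjusted p = 0.00373 and 0.005) and in DESeq2, Hlf in DESeq2, and Tef without SNI replicate 3 (0.0193). The log2 difference of Bhlhe40 in SNI+LDN193189 against SNI ran from -0.00234 without SNI+LDN193189 replicate 2, where it turned, to 0.15 without SNI replicate 3. Nfil3 in SNI against sham ran from -0.27 to -0.02, the latter without SNI replicate 3. Of 165 recomputed values of other named genes, 15 lost the call (7 of Bmal1 and 8 of Per2) and 8 gained it, and none turned. Genes called in SNI against sham were 0, 22 in DESeq2, 0 to 38 with a library left out (38 without sham replicate 1), and 0 with the replicate block. In SNI+LDN193189 against SNI 1 was called, 2 without the filter, 6 in DESeq2, 0 in limma, 3 with 2 groups per fit, 0 with the replicate block and 0 to 2 with a library left out. In SNI+LDN193189 against sham 3 were called, 30 without the filter, 73 in DESeq2, 1 in limma, 4 with the replicate block and 1 to 17 with a library left out (17 without SNI replicate 3). Bmal1 lost its call in limma, without sham replicate 1 or 2, SNI replicate 2 or any treated library, and Per2 in limma, without sham replicate 2 or 3, SNI replicate 1 or 2 or any treated library. Members without overlap numbered 1 to 3 in SNI against sham with a library left out (16.9 to 23.8% of all genes) and 2 in FPKM (9.3%), 0 to 6 in SNI+LDN193189 against SNI (4 without SNI+LDN193189 replicate 1, 6 without SNI replicate 3, all genes 19.3 to 26.4%, and 0 in FPKM, 11.4%) and 6 in SNI+LDN193189 against sham in each of 6 such settings (all genes 20.5 to 30.2%), 5 in FPKM (13.6%). These counts without overlap, their alternatives and the recomputed values of the other named genes were chosen after seeing the data. The cause was not tested. Same-numbered libraries of different groups had correlations of their deviations of -0.109 to 0.144, 2 of 9 over 0.1. The numbers were not taken as pairs, though such values cannot exclude a shared batch. With 3 libraries a group the median standard error over all genes was 0.118 on the log2 scale. Against sham it was larger for Dbp (0.339) and Nfil3 (0.155 in SNI and 0.157 in SNI+LDN193189), and smaller for the other measured members. Tef, at 0.40 (SE 0.0726) in SNI+LDN193189 against sham, was still not called by edgeR after adjustment over all genes. Nfil3 also rests on few counts.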
